A study of Mus musculus with 38 samples.

Results

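The genes described here are 6 genes that are typical of the thalamus, namely Tcf7l2, Lef1, Zic1, Prkcd, Slc17a6 and Calb2. They were chosen by name, matched to their Ensembl identifiers, and are 6 of the 48709 genes counted in each mouse. RNA had been sequenced from the hippocampus of 38 mice on a C57BL/6 background, and the thalamus lies directly beneath the hippocampus, so that these genes address how much of the neighboring tissue went along in each dissection. Mbp, which encodes myelin basic protein and was used as the measure of myelin in each mouse, was set beside them. The mice were wild type (WT) or APPPS1Δ9, a transgenic model of amyloid deposition that carries a mutant APP transgene with human sequence and that is labelled APPdelta9, and they had received chow with the compound anle138b or a placebo chow. In the pre-plaque cohort, analyzed at 6 months, each combination of genotype and chow had 4 mice. In the post-plaque cohort, analyzed at 10 months, it had 5 mice, except for APPPS1Δ9 on anle138b with 7. Every count is the number of reads on a gene, and levels are given as CPM (counts scaled to a common total) after TMM normalization of the libraries.

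The thalamus relays sensory and motor signals to the cortex, and most of its projection neurons are glutamatergic cells that load their vesicles with the transporter VGLUT2, the product of Slc17a6. Tcf7l2 and Lef1 encode transcription factors of the TCF/LEF family, which bind DNA together with beta-catenin in Wnt signaling, and Tcf7l2 is kept on in adult thalamic neurons. Zic1 encodes a zinc finger transcription factor of the medial thalamus and other midline tissue, Prkcd encodes protein kinase C delta, which is strong in thalamic relay neurons, and Calb2 encodes calretinin, a calcium-binding protein of midline thalamic neurons. None of these genes is made in the thalamus alone: Calb2 is also a gene of hippocampal interneurons and mossy cells, Prkcd is found in other neurons, and Tcf7l2 is found in the oligodendrocyte lineage.

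All of the genes are protein-coding, and counts were over their exons. On GRCm38, the build of mm10, GENCODE places Tcf7l2 (ENSMUSG00000024985) at chr19:55741820-55933654 on the plus strand, Lef1 (ENSMUSG00000027985) at chr3:131110471-131224356 on the plus strand and Zic1 (ENSMUSG00000032368) at chr9:91358058-91365810 on the minus strand. It places Prkcd (ENSMUSG00000021948) at chr14:30595354-30626210 on the minus strand, Slc17a6 (ENSMUSG00000030500) at chr7:51622006-51671119 on the plus strand and Calb2 (ENSMUSG00000003657) at chr8:110137502-110168210 on the minus strand.

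Since 2 of the genes encode TCF/LEF factors, the promoters of the genes were searched for the core motif of this family, CTTTGA, on both strands (TCAAAG is its reverse complement). The sequences run from 250 bases before to 50 bases after a transcription start and are RefSeq's, on GRCm38.p6. Entries matched 5 of the 6 genes, with 11 promoters in all, and Calb2 has no entry. The motif was in 2 of the 11 promoters (18.2%), against 5257 of 32851 promoters of all genes (16%). They belong to Prkcd and Lef1 and are shown for that reason, together with the promoter of Shox2, a thalamic transcription factor gene whose level was the most like that of Tcf7l2 over the mice. The motif is in capitals, in its TCAAAG orientation in each of the 3 sequences.
Prkcd, chr14:30626159-30626458, minus strand: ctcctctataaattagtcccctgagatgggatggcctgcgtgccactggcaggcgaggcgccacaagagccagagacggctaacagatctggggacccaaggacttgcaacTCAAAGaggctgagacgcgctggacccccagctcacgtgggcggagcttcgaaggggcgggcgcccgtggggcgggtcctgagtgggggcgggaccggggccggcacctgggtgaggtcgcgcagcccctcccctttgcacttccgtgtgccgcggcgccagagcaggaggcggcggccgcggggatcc
Lef1, chr3:131156044-131156343, plus strand: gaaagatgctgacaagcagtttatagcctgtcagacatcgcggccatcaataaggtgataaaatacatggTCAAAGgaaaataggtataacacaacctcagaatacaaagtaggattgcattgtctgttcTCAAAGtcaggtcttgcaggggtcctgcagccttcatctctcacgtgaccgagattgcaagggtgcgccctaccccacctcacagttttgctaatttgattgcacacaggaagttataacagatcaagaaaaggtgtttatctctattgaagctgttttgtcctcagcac
Shox2, chr3:66981722-66982021, minus strand: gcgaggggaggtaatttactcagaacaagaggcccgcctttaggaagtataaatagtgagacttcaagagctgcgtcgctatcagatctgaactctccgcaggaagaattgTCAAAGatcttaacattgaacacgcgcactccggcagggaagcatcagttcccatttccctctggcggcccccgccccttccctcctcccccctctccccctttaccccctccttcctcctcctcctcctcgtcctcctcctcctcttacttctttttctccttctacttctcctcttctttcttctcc
The Lef1 sequence is that of a start inside the gene, and it holds the motif at 2 places. The first match begins 139 bases before the start in Prkcd and in Shox2 and 180 bases before it in Lef1. A match is a description of these letters only.

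The library totals were between 15847985 and 31895808 counts. App, the gene of the amyloid precursor protein, was at 3228 to 4318 CPM in the 20 APPPS1Δ9 mice and at 1506 to 1809 CPM in the 18 WT mice and so followed the titles, although another label of the 4 placebo-treated WT mice of 6 months names the transgenic genotype. Xist, the RNA of the inactive X chromosome, was high in 12 mice, 11 of them WT, while the methods speak of males. The 22 mice of 10 months fell into 2 sets by Mbp, and this split touches most of the results below. In 9 of them Mbp was between 1012 and 1734 CPM, in the other 13 it was between 2398 and 3457 CPM, and in the 16 mice of 6 months it was between 2134 and 2926 CPM. The 9 mice with low Mbp came from each 10-month group, with 2 of 5 WT mice on placebo, 3 of 5 WT mice on anle138b, 2 of 5 APPPS1Δ9 mice on placebo and 2 of 7 on anle138b, and each of the sequencing lanes 3, 4, 5 and 6 held 10-month mice of both sets.

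All 6 genes passed the filter on low counts in every fit. Per kilobase of exon, the mean level over the 38 mice was highest for Calb2 at 25.6 CPM and then fell to 8.35 CPM for Prkcd, 3.64 CPM for Zic1, 2.62 CPM for Slc17a6, 0.613 CPM for Tcf7l2 and 0.354 CPM for Lef1. The lowest counts in any mouse were 33 for Slc17a6 and 45 for Lef1, for which the counting error alone is 17.4% and 14.9%. The range over the mice differed widely between the genes. Slc17a6 ran from 1.52 to 45.4 CPM, Calb2 from 5.73 to 83.8 CPM, Zic1 from 5.13 to 70.1 CPM and Prkcd from 10.8 to 94.4 CPM, while Tcf7l2 ran from 3.61 to 16.9 CPM and Lef1 from 1.81 to 5.18 CPM.

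**Figure D1:**
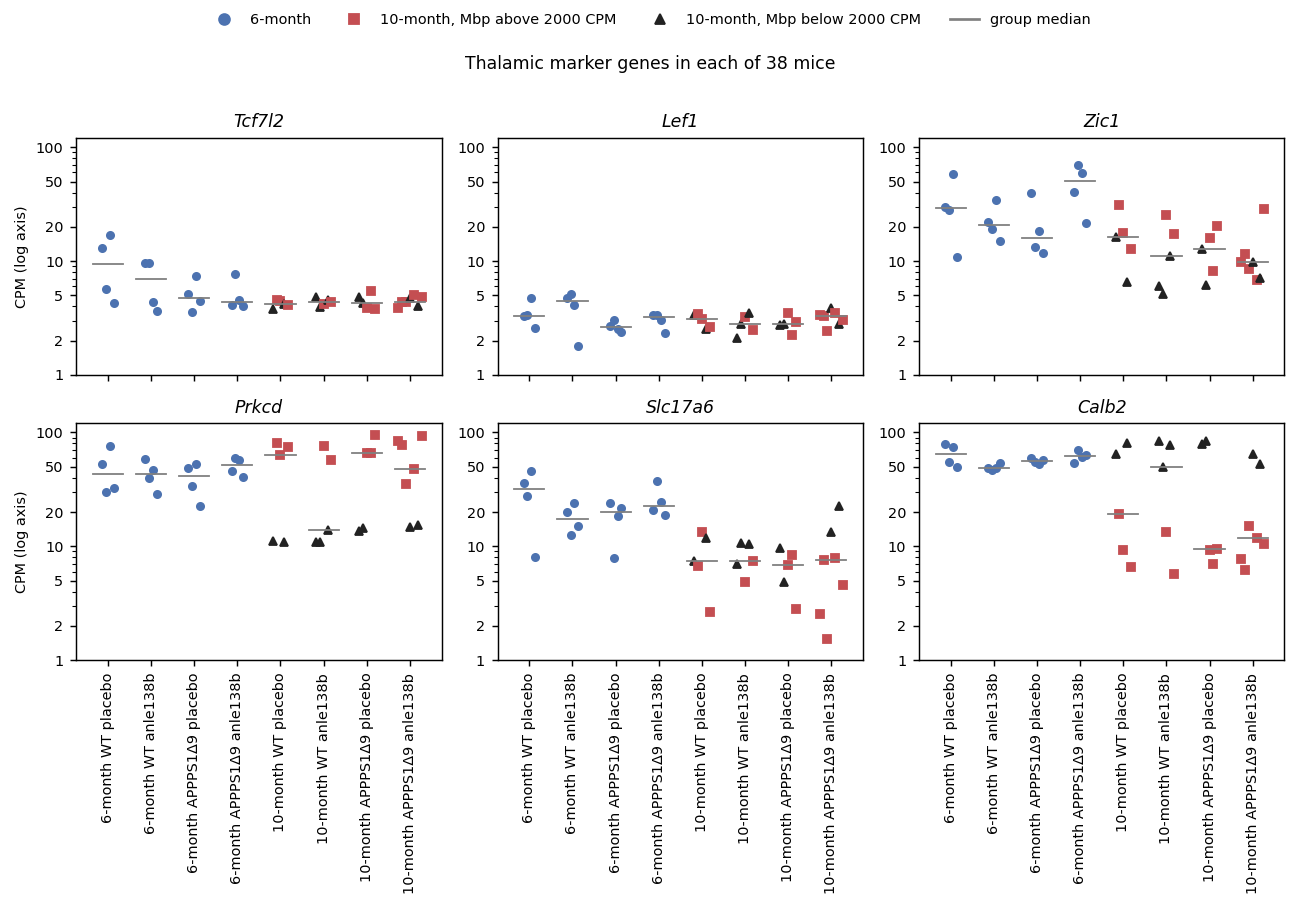
CPM (log axis) of each of the 6 genes in every mouse, by group, with a gray line at the group median. Circles are 6-month mice, squares and triangles are 10-month mice with Mbp above and below 2000 CPM, and Prkcd and Calb2 separate squares from triangles in each 10-month group.

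The first question was whether the genes go with the myelin level of each mouse. Over the 38 mice, with a term for the group, Prkcd rose with Mbp and Calb2 fell with it, Zic1 rose and Slc17a6 fell to a smaller extent, and Tcf7l2 and Lef1 did not pass the test. The values behind this are those of the 2 sets of 10-month mice. Prkcd was at 10.8, 13.5 and 15.4 CPM (lowest, median, highest) in the 9 mice with low Mbp and at 35.4, 74.1 and 94.4 CPM in the 13 mice with high Mbp, so that the sets did not overlap. Calb2 went the other way, with 49.6, 78.0 and 83.8 CPM at low Mbp and 5.73, 9.34 and 19.2 CPM at high Mbp, and again the sets did not overlap. The same held for both genes within each of lanes 3, 4, 5 and 6. The share of all genes that separated the sets was not counted. At 10 months 55% of 17667 genes had a slope on Mbp with an adjusted p under 0.1 in edgeR. Other genes given below, such as Dsp, Plekhg1 and Cacna1g, did not overlap between the sets either. Among the 16 mice of 6 months, Prkcd was at 22.5, 46.5 and 76.7 CPM, between the 2 sets or within the upper one, and Calb2 was at 46.5, 55.1 and 79.4 CPM, above each 10-month mouse with high Mbp. As these are whole-tissue libraries, fewer cells that make a gene and less RNA of it per cell cannot be told apart.

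The other members separated the sets less. Zic1 was at 5.13, 7.16 and 16.3 CPM at low Mbp and at 6.78, 15.9 and 31.3 CPM at high Mbp, and Slc17a6 was at 4.89, 10.4 and 22.6 CPM and at 1.52, 6.76 and 13.3 CPM, with overlap in both. Tcf7l2 was at 3.80, 4.31 and 4.82 CPM at low Mbp and at 3.82, 4.34 and 5.45 CPM at high Mbp, and Lef1 was at 2.11, 2.78 and 3.89 CPM and at 2.25, 3.10 and 3.47 CPM. These 2 genes were level across the 10-month mice, whatever the Mbp. The split therefore did not run through the 6 genes as a block, since 2 of them moved in opposite directions by several-fold while the TCF/LEF genes stayed within a narrow range.

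**Figure D2:**
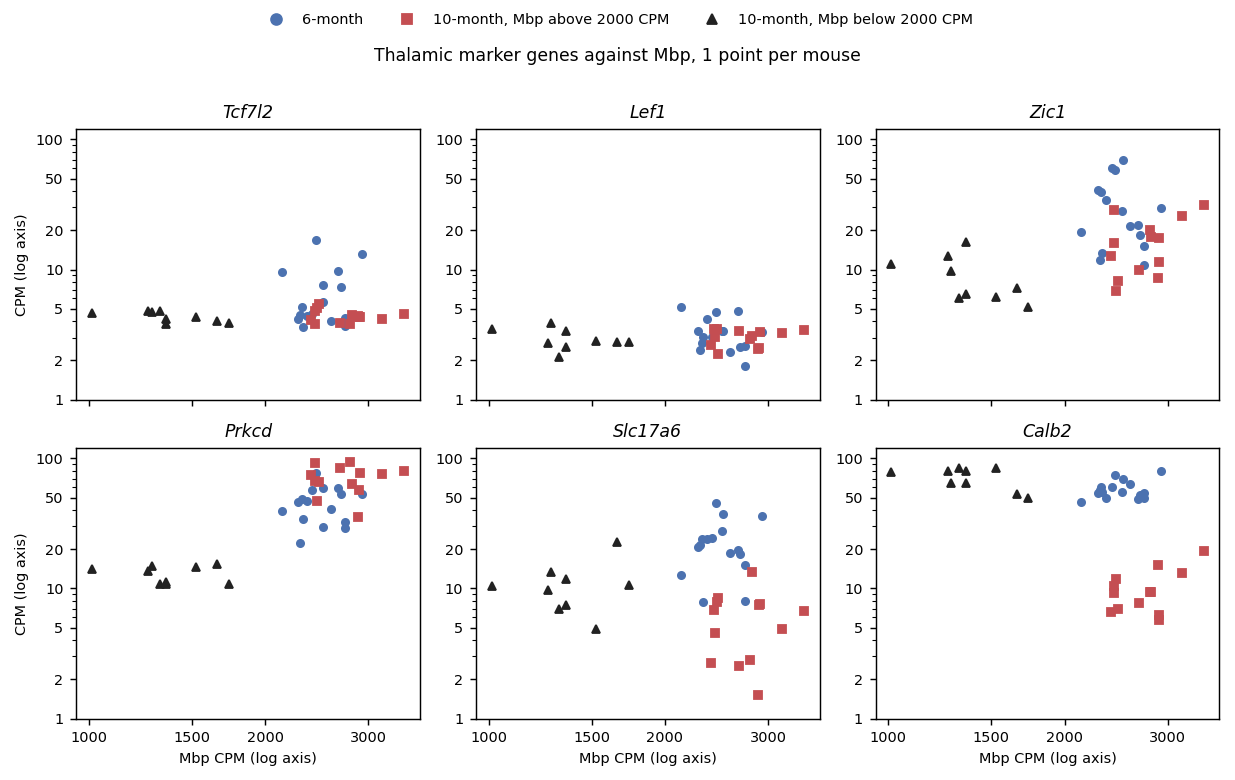
CPM of each of the 6 genes (log axis) against CPM of Mbp (log axis), with a point for each mouse. The 9 triangles are the 10-month mice with Mbp between 1012 and 1734 CPM, where Prkcd is at most 15.4 CPM and Calb2 is at least 49.6 CPM.

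In edgeR's quasi-likelihood test, with Benjamini-Hochberg adjustment over all genes and a threshold of 0.1, the slope of Prkcd was 2.03 log2 units per log2 unit of Mbp (SE 0.24, adjusted p = 4.61e-08) and that of Calb2 was -2.30 (SE 0.25, adjusted p = 6.85e-09). Zic1 had a slope of 0.68 (SE 0.30, adjusted p = 0.0630) and Slc17a6 had a slope of -0.72 (SE 0.32, adjusted p = 0.0642). The slopes of Tcf7l2 (-0.02, SE 0.18) and Lef1 (-0.07, SE 0.12) did not pass. Thus 4 of the 6 genes passed, against 52.1% of the 18231 genes tested, with 2 positive slopes against 24.5% of all genes and 2 negative slopes against 27.6%. At 10 months alone Prkcd, Zic1, Slc17a6 and Calb2 passed again, against 55% of 17667 genes, of which 27.3% were positive and 27.7% negative. A share of this size is close to that of the genes at large. The call of Zic1 was lost without any 1 of 4 WT libraries of 10 months, replicates 2 and 4 on placebo and 1 and 3 on anle138b, where the highest adjusted p in edgeR was 0.169. The call of Slc17a6 was lost without any 1 of 5 libraries of that age, replicate 3 of anle138b-treated WT mice, replicate 5 of placebo-treated APPPS1Δ9 mice and replicates 3, 4 and 6 of anle138b-treated APPPS1Δ9 mice, where the highest adjusted p in edgeR was 0.120. Without replicate 3 of the anle138b-treated WT mice only Prkcd and Calb2 passed, and these 2 genes passed whichever 1 of the 38 mice was left out.

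In the 16 mice of 6 months, 0 of the 6 genes passed in edgeR, against 0.0115% of 17403 genes, of which 1695 had an unadjusted p under 0.05, among them Lef1 alone of the 6 (slope -1.80, SE 0.73, adjusted p = 0.415). Prkcd had a slope of 0.24 (SE 1.17) and Calb2 of 0.33 (SE 0.41) in these mice, where Mbp spanned a narrow range and the errors are wide. Without the 9 libraries of low Mbp, 0 of the 6 genes passed, against 0.367% of 18539 genes, and Calb2 had a slope of 1.22 (SE 0.53), opposite in sign to that over all mice. With a term for these 9 libraries in the fit, 0 of the 6 passed, against 1.61% of genes. These choices of mice were made after the values had been seen. Leaving out the 9 libraries, or giving them a term, also removes the gap in Mbp between the sets from the slope. The difference of the slopes between 10 and 6 months did not pass for any of the 6 genes in edgeR, against 3.24% of 18231 genes, with 2 of the 6 at an unadjusted p under 0.05, namely Lef1 (adjusted p = 0.182) and Calb2 (adjusted p = 0.324).

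**Figure D3:**
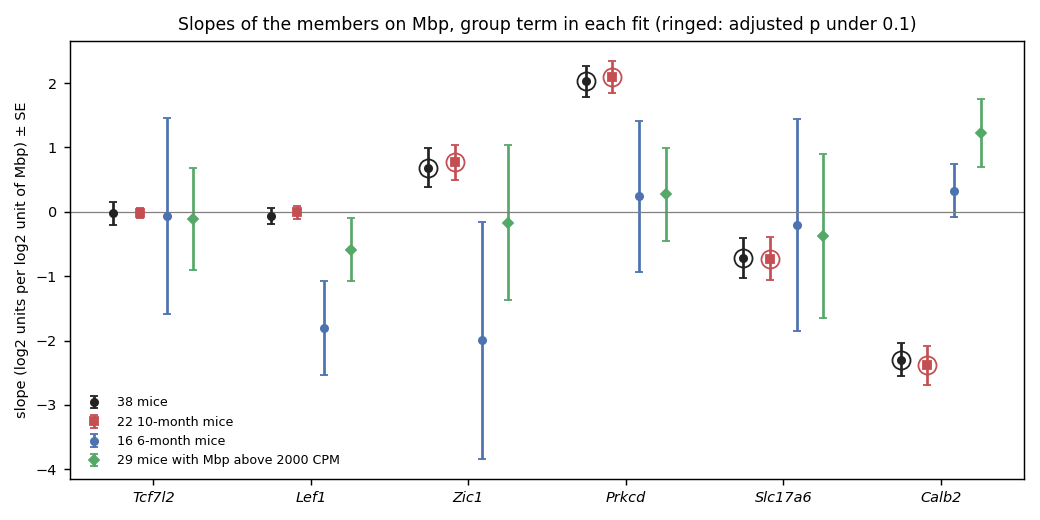
Slope of each gene on Mbp (log2 units per log2 unit of Mbp, bars are SE) in fits over 38 mice, 22 10-month mice, 16 6-month mice and the 29 mice with Mbp above 2000 CPM. Rings mark an adjusted p under 0.1, which 4 genes reached in the fits that hold the 9 libraries of low Mbp and 0 genes reached in the other fits.

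Correlation with Mbp was planned over all mice, and that result is given in the last section. Because the mice fall into separate sets, correlations are described here within each set. The sets by Mbp were chosen after the values had been seen. In the 16 mice of 6 months, r was between -0.350 for Lef1 (rho -0.332, permutation p = 0.181) and 0.298 for Calb2 (rho 0.147, permutation p = 0.263). In the 13 mice of 10 months with high Mbp, r was highest for Zic1 at 0.476 (rho 0.341, permutation p = 0.1002) and was 0.277 without the 2 mice farthest from the median of Mbp. In the 9 mice with low Mbp, it was lowest for Calb2 at -0.617 (rho -0.333, exact permutation p = 0.0777) and for Tcf7l2 at -0.608 (rho -0.667, exact permutation p = 0.0806). Over the 18 relations of 6 genes in 3 sets, 0 had a two-sided permutation p under 0.05 before any adjustment. The relation of Prkcd with Mbp, the steepest positive one over all mice, had an r of 0.114 (rho 0.138, permutation p = 0.675) at 6 months, 0.0499 (rho 0.0220, permutation p = 0.871) in the upper set and -0.113 (rho -0.150, exact permutation p = 0.779) in the lower set. The number of mice in a set limits what could be detected. The 10-month sets were also cut on Mbp itself, which narrows its range within each set and takes out the difference between them.

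Genes of other cells and regions differed between the 2 sets too, and their part in the slopes of the 6 genes was not tested. In the fit over 38 mice all 13 other myelin genes tested rose with Mbp, among them Mobp (slope 1.17) and Opalin (slope 1.08). The summed level of these 13 genes, without Mbp, was 1623 to 2601 CPM in the 9 mice and 3293 to 4828 CPM in the 13 mice. Of all genes tested 24.5% rose and 27.6% fell, and no list was tested against these shares. Of 8 genes of hippocampal neurons, 7 rose and 1 fell. Dsp, which encodes desmoplakin and is a marker of dentate granule cells, was at 3.97 to 43.4 CPM in the 9 mice and at 73.1 to 160 CPM in the 13 mice (slope 2.38, SE 0.29, adjusted p = 7.09e-08). Prox1, the transcription factor of dentate granule cells, was at 46.8 to 102 CPM and at 123 to 205 CPM. Of 6 interneuron genes, 4 fell and 0 rose, with Vip, a neuropeptide that calretinin cells of the hippocampus often share, at 19.6 to 24.8 CPM in the 9 mice and at 7.31 to 15.6 CPM in the 13 mice. All 7 neocortex layer genes passed, 3 upward and 4 downward, and Fezf2 and Tshz2 had slopes of -1.17 and -1.69. The other lists gave 2 genes up and 3 down of 7 for the striatum, 2 up and 2 down of 6 for the oligodendrocyte precursor stages, 1 up and 2 down of 4 for Cajal-Retzius cells, 0 up and 2 down of 6 for the habenula, 0 up and 1 down of 6 for endothelium and of 6 for the leptomeninges, and 0 of 8 for the choroid plexus.

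Of a list of 16 other genes of the thalamus, 15 could be tested over the 38 mice, and 6 rose and 3 fell with Mbp. Of all genes tested 24.5% rose and 27.6% fell, 52.1% together, and whether the list differs from that was not tested. The median slope was 0.08, against -0.01 over all genes, and that of the 6 members was -0.05. Plekhg1 rose (slope 0.98, SE 0.10), from 14.4 to 19.3 CPM in the 9 mice to 27.04 to 40.6 CPM in the 13 mice. Cacna1g, which encodes the T-type calcium channel behind the burst firing of relay neurons, fell (slope -1.18, SE 0.10), with 96.8 to 246 CPM at low Mbp and 42.1 to 87.8 CPM at high Mbp. Zic4 (0.88), Ramp3 (0.82), Slitrk6 (0.67), Tnnt1 (0.50) and Adarb1 (0.16) were the others that rose, and Lhx9 (-0.34) and Ntng1 (-0.32) the others that fell. The summed level of the list was 506 to 661 CPM in the 9 mice and 485 to 521 CPM in the 13 mice, ranges that overlap. Gbx2, a transcription factor that defines thalamic neurons in development, did not pass the filter. It was at 0 to 3 counts in the 10-month mice and at 0 to 40 counts in the 6-month mice. Shox2 was at 0 to 0.321 CPM in the 10-month mice and at 0.0380 to 5.10 CPM in the 6-month mice. In the 6-month fit 0 of the 15 genes passed.

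The second question was whether the 6 genes differ among the 8 groups. In an F test over the groups, Tcf7l2 (edgeR, adjusted p = 0.00236), Slc17a6 (adjusted p = 0.00159) and Zic1 (adjusted p = 0.00526) passed, and Prkcd (adjusted p = 0.984), Calb2 (adjusted p = 0.655) and Lef1 (adjusted p = 0.310) did not. These are 3 of the 6, against 45.1% of 18232 genes. Within the 4 groups of 6 months 0 of the 6 genes passed, against 0.161% of genes, and within the 4 groups of 10 months 0 passed, against 0.951% of genes. Age goes with the cohort, so that age and all else that set the cohorts apart cannot be told apart.

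Tcf7l2 was at 4.28, 5.65, 13.2 and 16.9 CPM in the placebo-treated WT mice of 6 months and at 3.66, 4.38, 9.61 and 9.67 CPM in the anle138b-treated WT mice. It was at 3.61, 4.44, 5.13 and 7.32 CPM in the placebo-treated and at 4.02, 4.14, 4.52 and 7.66 CPM in the anle138b-treated APPPS1Δ9 mice of that age. In the 22 mice of 10 months it was between 3.80 and 5.45 CPM. The level was thus raised in single mice of each 6-month group rather than in a whole group, with 6 mice above 7 CPM and the other 10 within or near the range of the 10-month mice.

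Slc17a6 showed more of a shift. It was at 8.01, 27.7, 36.2 and 45.4 CPM in placebo-treated WT mice of 6 months and at 12.6, 15.2, 19.8 and 24.1 CPM in anle138b-treated WT mice. In the APPPS1Δ9 mice of that age it was at 7.88, 18.5, 21.6 and 24.04 CPM on placebo and at 18.7, 20.95, 24.3 and 37.7 CPM on anle138b. The 10-month group medians were between 6.85 and 7.56 CPM. The ranges of the cohorts overlapped, with 7.88 to 45.4 CPM at 6 months and 1.52 to 22.6 CPM at 10 months. The second highest 10-month value was 13.4 CPM, however. The 6-month values from 15.2 to 45.4 CPM lay above it, and those from 7.88 to 12.6 CPM lay below it.

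Zic1 was at 10.8, 28.1, 29.9 and 58.5 CPM in placebo-treated and at 15.2, 19.3, 21.9 and 34.4 CPM in anle138b-treated WT mice of 6 months. It was at 11.9, 13.4, 18.4 and 39.6 CPM in placebo-treated and at 21.4, 40.5, 59.98 and 70.1 CPM in anle138b-treated APPPS1Δ9 mice. At 10 months the group medians lay between 9.79 and 16.3 CPM. The ranges of the cohorts overlapped for this gene as well. The 6-month values of 34.4, 39.6, 40.5, 58.5, 59.98 and 70.1 CPM lay above the highest 10-month value of 31.3 CPM.

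Of the other thalamus genes, 6 of 15 passed the test over the 8 groups, namely Rora, Tnnt1, Amotl1, Rgs16, Plcb4 and Shox2. Of all 18232 genes tested 45.1% passed, and whether this list or any list below differs from that was not tested. Plcb4, a phospholipase C of thalamic neurons, had a median of 35.5 CPM at 6 months and of 27.5 and 24.4 CPM in the lower and upper set of 10 months, and Amotl1 had medians of 35.1, 26.3 and 24.9 CPM. All 8 choroid plexus genes passed as well. Ttr, which encodes transthyretin and is the most abundant of them, was at 32.3 to 7509 CPM at 6 months with a median of 5807 CPM, and at 12.9 to 4081 CPM at 10 months, where the second highest mouse was at 240.0 CPM. Other lists gave 5 of 7 striatum genes, 4 of 6 interneuron genes, 3 of 6 habenula genes, 3 of 6 endothelial genes, 2 of 7 neocortex layer genes, 2 of 6 leptomeningeal genes, 2 of 6 oligodendrocyte precursor genes, 1 of 4 Cajal-Retzius cell genes, 1 of 8 hippocampal neuron genes and 0 of 14 myelin genes. The part of such tissue in the level of the 6 genes was not tested.

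Over the 16 mice of 6 months the levels of the 6 genes were compared in pairs. The mice were in 2 sets by Ttr, with 10 at 3731 to 7509 CPM and 6 at 32.3 to 655 CPM, and the median of each of the 6 genes was higher in the former, without a test. Their summed level was 132.9 to 277.1 CPM at high Ttr and 107.9 to 152.8 CPM at low Ttr, and the 8 choroid plexus genes summed to 4041 to 8155 CPM and to 69.9 to 731 CPM. Zic1 had a median of 36.97 CPM at high Ttr and of 14.3 CPM at low Ttr, Prkcd medians of 50.96 and 33.2 CPM, Slc17a6 of 24.2 and 16.8 CPM, Tcf7l2 of 6.66 and 4.15 CPM, Lef1 of 3.39 and 2.48 CPM and Calb2 of 57.8 and 54.4 CPM, and the ranges overlapped for each of them. The share of all genes with a higher median at high Ttr was not counted. The mouse number in the titles was 15 to 41 at high Ttr and 71 to 84 at low Ttr, so that Ttr and what goes with the number cannot be told apart. At low Ttr were mice 71, 74 and 75 of the placebo-treated APPPS1Δ9 group and a mouse of each other 6-month group (77, 83 and 84). The part of choroid plexus tissue in these levels was not tested.

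Of the 15 pairs over all 16 mice, 14 had a positive r, with a median of 0.544, and 5 had a two-sided permutation p that passed 0.1 after adjustment over 45 pairs in 3 sets. The share of pairs of other genes that do so was not counted, in this or any set below. No group term was used for the pairs, so that differences between groups are part of r. Slc17a6 and Zic1 had an r of 0.781 (rho 0.794, permutation p = 0.00032, adjusted p = 0.0144) and Prkcd and Zic1 an r of 0.753 (rho 0.732, permutation p = 0.00069, adjusted p = 0.0155), and without the 2 mice farthest from the median these were 0.697 and 0.656. Slc17a6 and Calb2 had an r of 0.696 (rho 0.671, permutation p = 0.00327, adjusted p = 0.0490) and Tcf7l2 and Lef1 an r of 0.649 (rho 0.597, permutation p = 0.00664, adjusted p = 0.0711), with 0.805 and 0.661 without 2 mice. Tcf7l2 and Prkcd had an r of 0.640 (rho 0.641, permutation p = 0.00790, adjusted p = 0.0711), which was 0.483 (permutation p = 0.0825) without 2 mice, so that this relation rests in part on them. Within lane 4 (6 mice) 14 of the 15 pairs had a positive r, with a median of 0.657, and within lane 5 (6 mice) 11 of 15, with a median of 0.252. Lane 4 held WT mice only, and lane 5 held placebo-treated APPPS1Δ9 mice and anle138b-treated WT mice. Within the sets by Ttr fewer pairs held. In the 10 mice with high Ttr 11 of 15 pairs had a positive r, with a median of 0.481, and 1 passed 0.1 after adjustment over the 30 pairs of both sets, namely Slc17a6 and Calb2 (r 0.880, rho 0.879, permutation p = 0.00051, adjusted p = 0.0153). Slc17a6 and Zic1 had an r of 0.672 there (permutation p = 0.0318), Prkcd and Zic1 of 0.556, Tcf7l2 and Lef1 of 0.541 and Tcf7l2 and Prkcd of 0.476, and the r of Lef1 with Zic1 was -0.44. In the 6 mice with low Ttr 10 of 15 pairs had a positive r, with a median of 0.256, and 0 passed. The smaller number of mice limits these sets too.

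At 10 months, in the 13 mice with high Mbp, 10 of 15 pairs had a positive r and the median was 0.126, and in the 9 mice with low Mbp 9 of 15 did and the median was 0.126 too. After adjustment 0 pairs passed in either set, and before it only Prkcd and Zic1 in the upper set had a permutation p under 0.05 (r 0.592, rho 0.566, permutation p = 0.0303), with an r of 0.306 without 2 mice. The difference between the cohorts in these relations was not tested, and the smaller number of mice limits the 10-month sets.

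**Figure D4:**
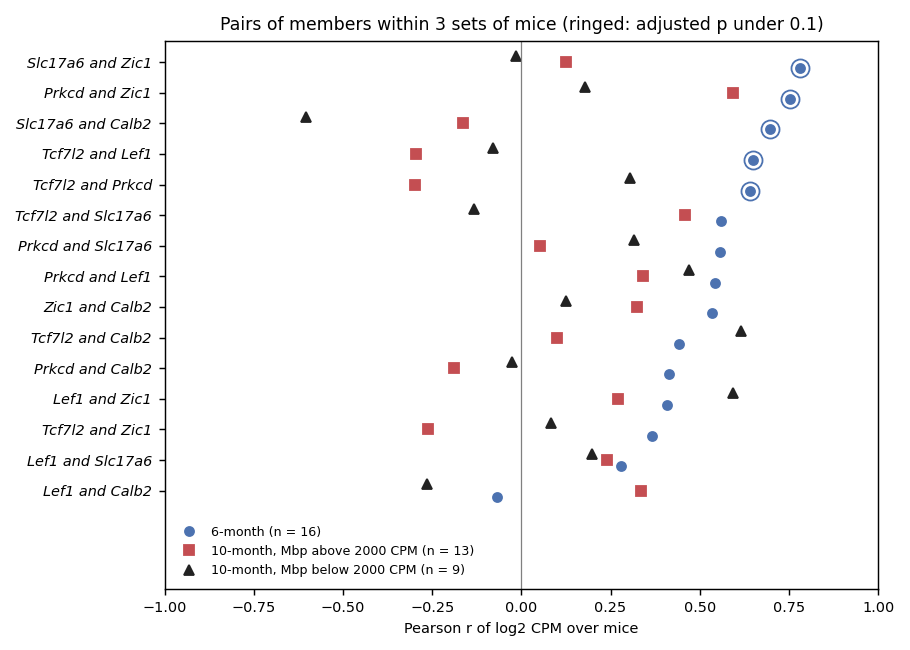
Pearson r of log2 CPM over mice for each of the 15 pairs of the 6 genes, within the 16 6-month mice (circles), the 13 10-month mice with Mbp above 2000 CPM (squares) and the 9 below it (triangles). Rings mark an adjusted p under 0.1, which 5 pairs reached at 6 months and 0 pairs reached at 10 months.

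The genes most like each member were taken by the Pearson r of log2 CPM deviations from the group means over the 38 mice, as a description. Shox2 (0.88), Tnnt1 (0.74) and Amotl1 (0.71) were nearest to Tcf7l2. In placebo-treated WT mice of 6 months, the 4.28, 5.65, 13.2 and 16.9 CPM of Tcf7l2 stood beside 0.0455, 0.660, 2.88 and 5.10 CPM of Shox2 and 1.46, 2.64, 6.36 and 7.82 CPM of Tnnt1. The order of the mice was the same in the 3 genes. Zic4 (0.95), Zic2 (0.94) and Isl1 (0.87) were nearest to Zic1. Zic4 lies beside Zic1 in the opposite orientation and shares 60 of the 5693 exon bases of Zic1, so that a few reads could be counted for either gene where strand was not used. Lef1 shares 1208 of its 8788 exon bases with an antisense gene, Gm43352, that had 0 to 7 counts in each mouse. Cacng5 (0.96), Plekhg1 (0.95) and Frmpd1 (0.94) were nearest to Prkcd, and Necab2, Sulf2 and Cgref1 (0.95, 0.95 and 0.94) to Calb2, and these rest mostly on the split of the 10-month mice. Nts (0.84), Tshz2 (0.84) and Syt2 (0.82) were nearest to Slc17a6, and Ammecr1, Traf4 and Lmntd2 (0.70, 0.70 and 0.69) to Lef1. For the mean of the 6 genes, each divided by its SD, the 10 nearest were Amotl1 (0.87), Plcb4 (0.82), Patj (0.77), Pcp4l1 (0.76), Tpra1 (0.74), Rnf152 (0.74), Grid2ip (0.73), Gm43398 (0.73), Gm39244 (0.72) and Adra2b (0.70), of which Amotl1 and Plcb4 were in the list of other thalamus genes.

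The third question was whether the genes differ with genotype or with anle138b. In each of the 8 comparisons of 2 groups 0 of the 6 genes passed in edgeR. At 6 months this stood against 0% of all genes for anle138b in WT mice, 0.0715% for genotype on placebo, 0.047% for genotype on anle138b and 0.0529% for anle138b in APPPS1Δ9 mice. At 10 months it stood against 0%, 0.324%, 0.723% and 0% in the same order. Of the 48 values, 3 had an unadjusted p under 0.05, all at 6 months, and the genes of the whole table with such a p were between 212 and 2233 in a comparison. Genotype went with the lane: at 10 months WT mice were in lanes 3 and 4 and APPPS1Δ9 mice in lanes 5 and 6. At 6 months WT mice were in lane 4 on placebo and in lanes 4 and 5 on anle138b, and APPPS1Δ9 mice in lanes 5 and 6. No comparison of genotype had a lane with both groups, so genotype and lane cannot be told apart. High Xist was also uneven, with 11 of 12 such mice WT.

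Calb2 was at 46.5, 48.5, 49.2 and 54.1 CPM in anle138b-treated WT mice of 6 months and at 54.4, 60.3, 63.4 and 69.9 CPM in anle138b-treated APPPS1Δ9 mice. The 2 groups did not overlap, and the log2 fold change was 0.33 (SE 0.08), with an adjusted p of 0.514 in edgeR. The share of all genes without overlap was not counted, and 961 of 17033 genes had an unadjusted p under 0.05 in edgeR here. In DESeq2 the adjusted p was 0.0850, the single instance in which a member passed in any of the alternatives tried for these comparisons. The share of all genes that passed in DESeq2 is not given here. Against the placebo-treated WT mice, at 49.8, 55.5, 74.9 and 79.4 CPM, Calb2 in the anle138b-treated WT mice had a log2 fold change of -0.39 (SE 0.15, adjusted p = 0.9998 in edgeR). Both comparisons share the anle138b-treated WT mice.

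Zic1 in anle138b-treated mice of 6 months, with the values given above, had a log2 fold change of 1.09 between APPPS1Δ9 and WT (SE 0.44, adjusted p = 0.836 in edgeR), and the groups overlapped. Its largest value was 1.20 (SE 0.54, adjusted p = 0.411 in edgeR), for anle138b against placebo in APPPS1Δ9 mice of 6 months. The largest value of Tcf7l2 was -0.98 (SE 0.50, adjusted p = 0.518 in edgeR), for genotype on placebo at 6 months. The median of the 6 values was -0.44 for anle138b in WT mice, -0.50 for genotype on placebo, 0.27 for genotype on anle138b and 0.27 for anle138b in APPPS1Δ9 mice at 6 months, where the median over all genes was between -0.0044 and 0.0023. At 10 months the medians of the 6 were between -0.07 and 0.06. There the errors followed the split by Mbp: the SE of Tcf7l2 was 0.10 to 0.12 in the 4 comparisons, while that of Calb2 was 0.73 to 0.91 and that of Prkcd 0.58 to 0.75. The fold changes of these 2 genes thus had the widest errors, which hold the spread between mice and are not errors of counting alone.

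**Figure D5:**
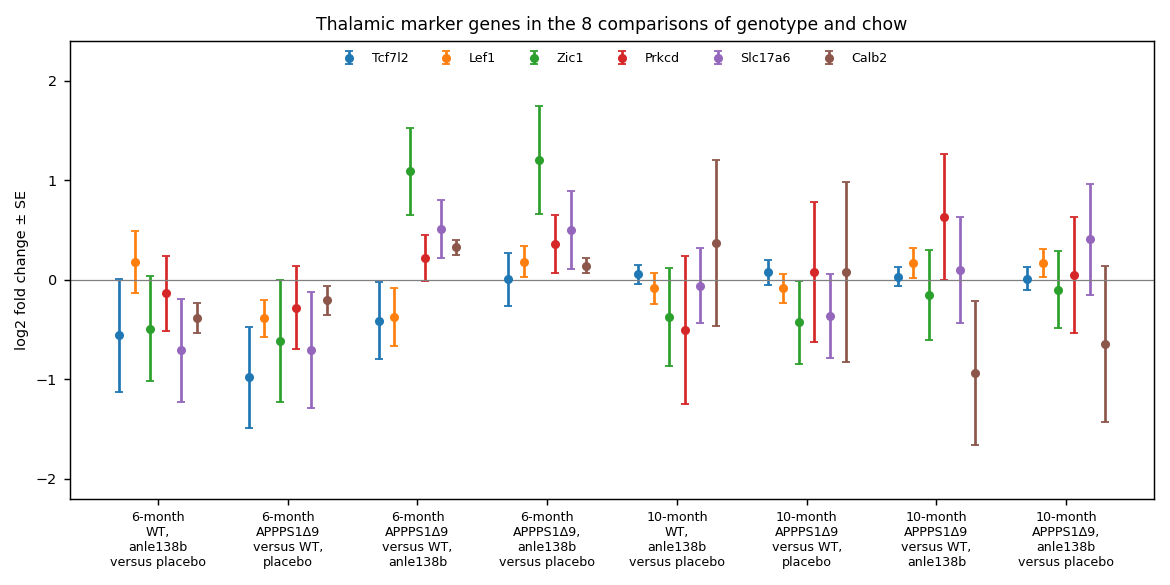
Log2 fold change of each of the 6 genes in the 8 comparisons of genotype and chow (bars are SE). None passed an adjusted p of 0.1 in edgeR, and the bars of Prkcd and Calb2 are widest at 10 months.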

How the data were processed

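RNA of the hippocampus of 38 mice had been sequenced from TruSeq mRNA libraries. The authors used STAR for mapping to mm10 and HTSeq for counting per gene, and the deposited files hold raw counts of 48709 genes, without normalization. The strand setting of the counting is not given in the sources used here. Groups were taken from titles. Symbols (48349 genes) and positions came from GENCODE M21. Counts were tested in R 4.3.3 with edgeR 4.0.16 (filterByExpr with minimum count 10 and total 15, TMM, estimateDisp, glmQLFit robust, glmQLFTest), with Benjamini-Hochberg adjusted p under 0.1 as the threshold over all genes tested and the SE as the log2 value divided by the root of F. Slopes used log2 CPM (prior count 2) of Mbp with a group term. Permutation tests were two-sided, with 100000 resamples or, in sets of 9 mice or fewer, exact. Alternatives were DESeq2 1.42.0, RLE size factors, no filter, a threshold of 0.05, covariates, a mean of myelin genes, subsets of mice, a replicate block, and leaving out single mice.

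The scripts were tested on simulated data. The 6 genes, the gene lists and the split by Mbp at 2000 CPM were chosen with earlier results of these data known. Named beside the 6 genes are the other thalamus genes past the threshold, up to 5 of each other list by slope, and the genes most like the members. The 6-month mice above 7 CPM of Tcf7l2, and the sets of 6-month mice on either side of 1000 CPM of Ttr, were singled out after the values were seen. P-values measure the spread between mice, and counting errors cover counting only. No library was left out of the main tests. Some alternatives and details of the model are not reported here.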

Additional observations from a re-analysis of the deposited data

Results flagged for a closer look

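In the 7 anle138b-treated APPPS1Δ9 mice of 10 months, Zic1 was at 28.5 CPM in replicate 7 and between 6.78 and 11.5 CPM in the others, a gap of 0.636 of the range of the group on the log2 scale, above Dixon's limit for 7 samples. It was the only value singled out in this way among the 48 combinations of 6 genes and 8 groups, where chance singles out about 1 in 20. This mouse had Mbp of 2433 CPM, Prkcd of 92.4 CPM, the second highest of the 38 mice, and Zic4 of 10.8 CPM, the highest of its group, while its Tcf7l2 was at 4.81 CPM and its Lef1 at 3.01 CPM.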

How the results depend on the processing

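The number of the 6 genes that passed for the slope on Mbp was 4 and stayed at 3 or 4 with DESeq2, RLE size factors, the mean of 13 myelin genes in place of Mbp, cohort and lane in place of the group, no group term, a Y-linked covariate, the 10-month mice alone and without the 2 mice farthest from the median of Mbp. It was 2 with no filter on low counts, 2 at a threshold of 0.05, 2 with the replicate block, 0 in the 6-month mice, 0 without the 9 libraries of low Mbp and 0 with a term for them, and 2 to 4 when a mouse was left out. In the main fit 52.1% of all genes passed, and the shares in the alternatives not described above are not given here. A count of members is thus no result about them without that share. The sign of Zic1 turned in the 6-month mice (-1.996), without the 9 libraries (-0.17) and with a term for them (-0.42), that of Calb2 turned in the same fits (0.33, 1.22 and 0.21), and that of Slc17a6 turned without the group term (0.29) and with the term for the libraries (0.28), none of them past the threshold. The cause was not tested. The number that passed among the 8 groups was 3, and was 0 in the 6-month groups, 0 in the 10-month groups and 0 with the replicate block, whose levels lie within a cohort and so take up the cohort difference by construction. It was 3 or 4 when a mouse was left out, and in the main test 45.1% of all genes passed. Plain correlation with Mbp over all mice, which mixes the sets, gave 3 of the 6 genes at a permutation p under 0.05, and 0 in the 6-month mice, 0 in the upper and 0 in the lower set of 10 months, and 3 when a mouse was left out. The share of all genes was not counted for the correlation. Of the pairs of the 6 genes over the 6-month mice 5 passed, against 1 in those with high Ttr and 0 in those with low Ttr, fits with fewer mice. In the 8 comparisons of genotype and chow the number stayed at 0 throughout, with each mouse left out and without the 9 libraries included, except that DESeq2 gave 1 for genotype on anle138b at 6 months. The replicate number did not pair the mice in any of the 8 comparisons, since the correlation of same-numbered mice was not above 0.1 in every pair, and with it as a block 0 of the 6 genes passed in each. Fits limited to sets of mice by age, Mbp or Ttr were chosen after seeing the data, apart from those by age for the slope and the correlation. Low counts limit Lef1 and Slc17a6, and the few mice of a set limit the correlations.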
